A study of Mus musculus with 18 samples.

Results

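Inflammatory monocytes of 4T1 tumour-bearing and healthy mice were defined by a transcript gate, applied to every cell of 18 Drop-seq libraries from lung, spleen and an implanted biomaterial scaffold. Of 26397 deposited barcodes, 19761 cells were kept, and 1337 of these met the gate. A gated cell carried at least 2 of the 6 transcripts Ccr2, Ly6c2, F13a1, Ms4a4c, Ms4a6c and Vcan. Cells were left out where S100a8 and S100a9, the calprotectin genes of neutrophils, made up 5% or more of the unique molecular identifiers (UMIs, each marking 1 captured transcript). They were also left out with 3 or more UMIs of the complement genes C1qa, C1qb and C1qc, with 2 or more of Ccl24 and Clec4n, with 2 or more of the progenitor genes Mpo and Elane, or with any UMI of Cd79a, Cd3e, Cd3g, Ncr1, Xcr1, Cd209a or Siglech. These 22 genes chose the cells, so their levels are description only. They stayed in the fits, where from 0 to 6 of them are among the genes called in each comparison, and nothing is read from those calls.

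Tumour-bearing mice were female BALB/cJ animals that had received 4T1-tdTomato-luc2 cells, a luciferase-tagged and tdTomato-tagged mouse mammary carcinoma line, in a mammary fat pad. Healthy mice of the same strain and sex received no tumour cells. Tissues were taken at days 7, 14 and 21 after inoculation, when the labels give ages of 9, 10 and 11 weeks, from tumour-bearing and healthy mice alike. Each tissue, state and day is 1 library, so days stand in for replicates. The labels do not say how many mice entered a library or whether the 3 tissues of a day came from the same mice, and p-values therefore measure only the spread between these libraries.

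Inflammatory monocytes are short-lived cells of the bone marrow that carry high Ly6C on their surface and leave the marrow through the chemokine receptor CCR2. They circulate, wait in reserve in the spleen, and enter inflamed or implanted tissue, where they can mature into macrophages or dendritic cells. In mice with growing tumours, marrow output shifts towards granulocytes and monocytes, and tumour-associated monocytes are studied for their roles in metastasis and in restraint of T cells.

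Depth and barcode sharing differed between libraries. The median gated cell had from 358 UMIs (healthy spleen, day 21) to 2594 UMIs (tumour-bearing scaffold, day 21). Barcodes found in more than 1 library of a day numbered 279 of 5684 at day 7, 103 of 8932 at day 14 and 1046 of 7545 at day 21, and such a barcode was kept only where its UMIs were at least 5 times those in the next library. Healthy spleen kept 27 cells and healthy lung 235 cells at day 21. The gene comparisons used the 16 libraries with at least 10 gated cells. Healthy spleen at days 7 and 21, with 5 and 4 gated cells, was left out, so spleen gave 1 pair of libraries, against 3 each for lung and scaffold.

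Most gated cells carried myeloid transcripts that the gate did not use. Of the 1337, 1270 carried at least 3 of 8 general myeloid transcripts. Ccr2 was detected in 82.6% of them, Ms4a6c in 82.3%, F13a1, a coagulation factor subunit of monocytes, in 46.2%, Ly6c2 in 42.6%, Ms4a4c in 38.7% and Vcan, a matrix proteoglycan, in 20.3%. At the lower edge 562 gated cells had exactly 2 of the 6 markers, and 1314 cells met every other limit with exactly 1. At the calprotectin edge 13 gated cells had 4 to 5% of their UMIs from S100a8 and S100a9, and 9 cells that met every other limit had 5 to 6%. A further 28 gated cells had 5 or more UMIs of 6 collagen and matrix genes. All 28 carried Vcan and 24 carried Ly6c2, while 3 carried Ccr2. Of these cells 16 came from healthy scaffold at day 21 and 2 from tumour-bearing lung. Many gated cells of scaffold also carried macrophage transcripts at levels not seen in lung or spleen, so there the name monocyte follows the gate and not the whole profile.

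Gated monocytes were found in every library, and their share of cells did not differ in one direction between tumour-bearing and healthy mice. In lung they made up 8.93, 11.7 and 1.36% of kept cells of tumour-bearing mice at days 7, 14 and 21, against 4.77, 7.76 and 8.94% in healthy mice. In spleen the shares were 3.34, 5.31 and 7.51% in tumour-bearing mice, against 1.51, 1.06 and 14.8% in healthy mice, the last resting on 4 of 27 cells. In scaffold they were 7.35, 14.4 and 6.11% in tumour-bearing mice, against 9.50, 9.49 and 12.7% in healthy mice. The groups overlapped in all 3 tissues, in spleen only through healthy spleen at day 21. All 3 pairs of day 21 were lower in tumour-bearing mice.

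The mean share was 7.33 ± 5.36% in tumour-bearing lung and 7.15 ± 2.15% in healthy lung (SD, n = 3 each, exact two-sided permutation p = 1). It was 5.39 ± 2.09% in tumour-bearing spleen and 5.79 ± 7.82% in healthy spleen (SD, n = 3 each, exact permutation p = 1). Without healthy spleen at day 21 the healthy mean was 1.28%, 4.10 percentage points below the tumour-bearing one (exact permutation p = 0.2). The spleen difference was 3.31 points with shared barcodes kept, 7.07 with at least 400 genes per cell and 5.17 with cells thinned to 500 UMIs (exact permutation p = 0.1 each). Healthy spleen at day 21 entered as 0 of 4 cells with 400 genes and as 0 of 8 cells with thinning. The mean share was 9.28 ± 4.46% in tumour-bearing scaffold and 10.6 ± 1.83% in healthy scaffold (SD, n = 3 each, exact permutation p = 0.6). The smallest p that 3 against 3 libraries allow is 0.1. Over the 9 tissue and day pairs the mean log2 ratio was 0.01, with 5 of 9 pairs higher in tumour-bearing mice (exact sign-flip p = 0.98). It was 0.84 without day 21, with 5 of 6 pairs higher (exact sign-flip p = 0.0625), and -0.56 without day 14, with 2 of 6 pairs higher (exact sign-flip p = 0.344).

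Calprotectin-rich cells made up 84.3% of kept cells in tumour-bearing lung at day 21, against 0.851% in healthy lung, so the denominator moved with the state. Counted among cells under the calprotectin limit, gated monocytes were 17.0 ± 10.1% in tumour-bearing lung and 7.46 ± 2.05% in healthy lung (SD, n = 3 each, exact permutation p = 0.2). On that scale the mean log2 ratio over 9 pairs was 0.90, with 6 of 9 pairs higher (exact sign-flip p = 0.0469), and 0.97 with p = 0.0625 (exact sign-flip) without healthy spleen at day 21.

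**Figure D1:**
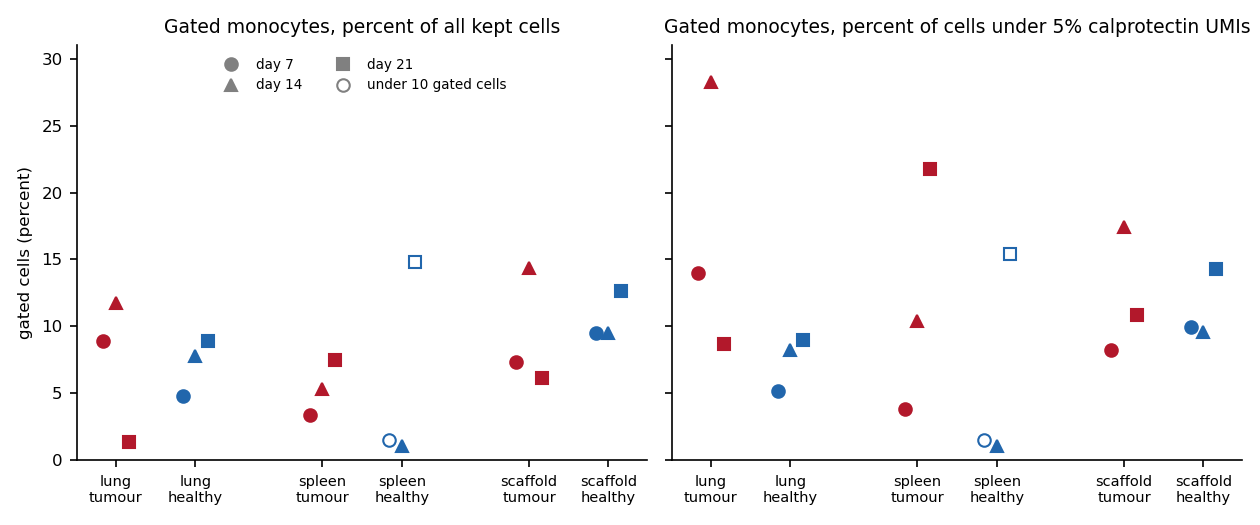
Share of gated monocytes in each of the 18 libraries (y axis, percent), tumour-bearing left of healthy in lung, spleen and scaffold, as a share of all kept cells (left panel) and of cells under 5% calprotectin UMIs (right panel). Marker shape gives the day and open markers libraries with fewer than 10 gated cells; tumour-bearing lung at day 21 lies at 1.36% in the left panel, the lowest of its group.

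To ask what tumour growth did to the monocytes themselves, UMIs of gated cells were summed per library and tested with edgeR's quasi-likelihood test, with tissue and day as a block. Saa3, Wfdc21 (listed under its older symbol 1100001G20Rik), Ifitm1 and Lrg1 were higher in tumour-bearing mice in 7 of 7 pairs of libraries, and 4 interferon-response genes were among those that fell. Of 6052 genes tested over the 3 tissues, 41 rose (0.677%) and 18 fell (0.297%), together 59 (0.975%) at a Benjamini-Hochberg adjusted p under 0.05. Higher genes were 69.5% of these calls, and 49.4% when libraries were scaled by their totals in place of TMM. The 59 include 3 gate genes (S100a8, S100a9 and Vcan). Calls numbered 37 without day 7, 35 without day 14 and 19 without day 21. The median log2 change of all tested genes was 0.09. Levels below are CPM, each gene's share of the summed UMIs of a library's gated cells scaled to 1000000, without correction for gene length, and fold changes are tumour-bearing over healthy.

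Saa3, the serum amyloid A family member that inflammatory cytokines induce in macrophages (mm10 chr7:46711998-46715700, protein-coding), had the clearest rise. In lung its level was 69.5, 666 and 2281 CPM in tumour-bearing mice at days 7, 14 and 21, against 0, 0 and 0 CPM in healthy mice. In spleen it was 30.4, 488 and 3730 CPM in tumour-bearing mice, against 0 CPM in healthy mice at day 14. In scaffold it was 26.2, 92.6 and 1326 CPM in tumour-bearing mice, against 0, 26.6 and 38.0 CPM in healthy mice. Every tumour-bearing library was above its healthy partner, and the level was highest at day 21 in each tissue. Over the 3 tissues the log2 fold change was 4.93 ± 0.46 (SE, adjusted p = 1.08e-23, edgeR), and without day 21 it was 4.22 (adjusted p = 1.68e-09, edgeR). In lung the summed level was at least 38.8-fold higher, counted against a floor of 3 UMIs over the healthy group.

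Part of the libraries' Saa3 lay outside monocytes, and the rise did not differ from that in B cells beyond its error, as given near the end. At day 21 in tumour-bearing spleen 56 of 110 gated cells (50.9%, median 902 UMIs) had a Saa3 UMI, against 5 of 42 B cells (11.9%, median 469 UMIs) and 5 of 30 T cells (16.7%, median 402.5 UMIs). The Saa3 level of B cells there was 522 CPM, that of T cells 1338 CPM and that of calprotectin-rich cells 2295 CPM. In tumour-bearing scaffold at day 21 Saa3 stood at 2076 CPM in T cells and 7584 CPM in calprotectin-rich cells, both above the 1326 CPM of gated cells.

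Wfdc21, a whey acidic protein domain gene, was also highest at day 21 in these libraries. It was listed at 55.6, 647 and 2994 CPM in tumour-bearing lung and at 0 CPM in all 3 healthy lung libraries. In scaffold it was 34.0, 29.6 and 704 CPM in tumour-bearing mice, against 14.2, 16.0 and 7.12 CPM in healthy mice. Its log2 fold change over the 3 tissues was 5.13 ± 0.50 (SE, 7 of 7 pairs, adjusted p = 8.47e-22, edgeR). Ifitm1, an interferon-induced membrane protein gene that is not on the interferon list below, rose by log2 3.79 ± 0.47 (SE, 7 of 7 pairs, adjusted p = 7.45e-13, edgeR). At day 7 Ifitm1 already stood at 159.9 CPM in tumour-bearing lung and 23 CPM in healthy lung. Healthy levels rest on few counts: over the 3 days lung held 153 Ifitm1 UMIs in tumour-bearing and 3 in healthy mice. Wfdc17, which encodes another small secreted protein of that domain class, rose by 1.31 ± 0.27 (SE, 5 of 7 pairs, adjusted p = 2.93e-04, edgeR). These 4 genes kept their calls when any 1 day was left out.

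Of 12 tested genes on a list of granulocyte-like monocytes, a marrow-derived state that carries neutrophil granule transcripts, 5 rose and none fell. They were Saa3, Chi3l3, Lcn2, Ngp and Prtn3, and the list's median was log2 2.28 (1.98 with genes at 0 set to their bound), against 0.09 for all genes. Chi3l3, the chitinase-like Ym1 gene, was highest at day 21. It reached 3771 CPM in tumour-bearing lung, against 0 CPM in healthy lung, 4979 CPM in tumour-bearing spleen, and 642 CPM in tumour-bearing scaffold, against 7.12 CPM in healthy scaffold. At days 7 and 14 it stood at 174 and 89.1 CPM in tumour-bearing lung, against 68.9 and 189 CPM in healthy lung. The log2 fold change of 1.52 ± 0.41 (SE, 3 of 7 pairs, adjusted p = 0.0288, edgeR) turned to -0.79 without day 21 (adjusted p = 0.998, edgeR). It was 3.94 without day 14, and 0.80 without healthy lung at day 21, which did not pass.

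At day 21 most gated cells of lung and spleen carried Chi3l3. A Chi3l3 UMI was found in 31 of 32 gated cells of tumour-bearing lung (96.9%) and 92 of 110 of tumour-bearing spleen (83.6%), against 0 of 42 B cells of that spleen library, where the level was 0 CPM. That is 1 library. In the fitted comparison with B cells given near the end, the Chi3l3 effect in monocytes minus that in B cells was log2 -1.39 ± 0.94 (SE), not past the threshold. A larger rise of Chi3l3 in monocytes than in B cells was thus not shown. In tumour-bearing scaffold 29 of 80 gated cells carried one (36.2%), against 3 of 162 in healthy scaffold. Calprotectin-rich cells had 579 CPM of Chi3l3 in tumour-bearing lung and 2487 CPM in tumour-bearing spleen, both below the gated cells of the same library. Lcn2, the siderophore-binding lipocalin of specific granules (mm10 chr2:32384633-32388252), was 13.9, 174 and 1452 CPM in tumour-bearing lung and 0 CPM in all 3 healthy lung libraries. It rose by log2 4.34 ± 0.56 (SE, 6 of 7 pairs, adjusted p = 6.14e-12, edgeR), and without day 21 the value was 2.65 and missed the threshold. Ngp, a neutrophil granule protein gene, had 116 UMIs in tumour-bearing mice against 1 UMI in healthy mice, a ratio of 73.6 with a 95% counting interval of 12.9 to 2930.

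**Figure D2:**
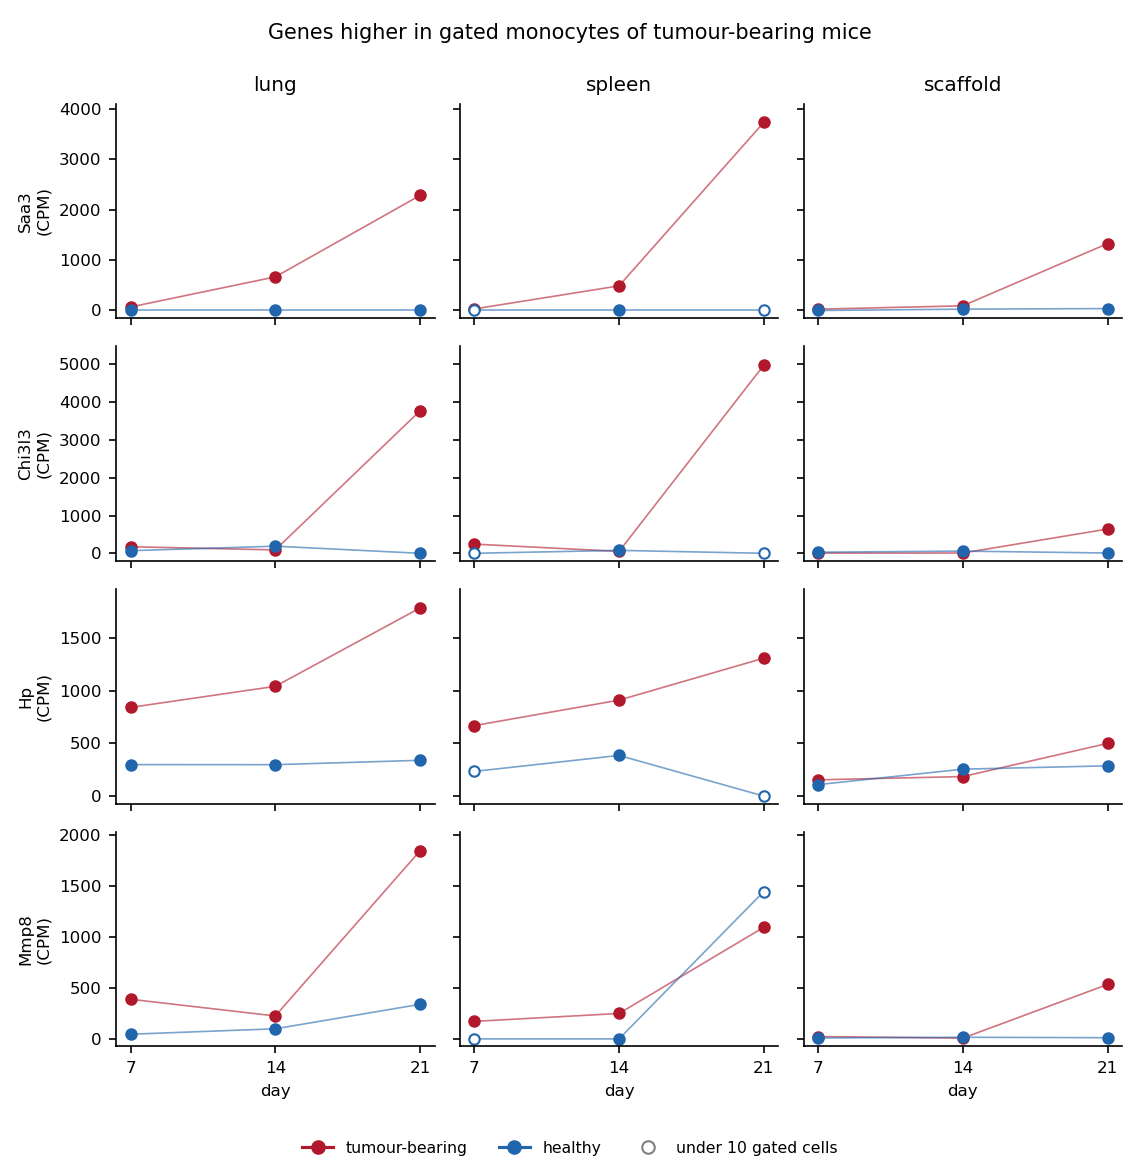
Levels of Saa3, Chi3l3, Hp and Mmp8 in gated monocytes (CPM, y axis) by day (x axis) in lung, spleen and scaffold, with tumour-bearing libraries in red and healthy ones in blue and 1 point per library. Saa3 at day 21 lay at 2281, 3730 and 1326 CPM in the tumour-bearing lung, spleen and scaffold, while Chi3l3 stood apart at day 21 and not at the earlier days.

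Neutrophil transcripts rose with these genes. Of 10 tested genes on a list of mature neutrophil markers, leaving out the gate genes S100a8 and S100a9, 7 rose and none fell, with a median of log2 3.40 (2.83 with bounds). Retnlg, a resistin-like gene of neutrophils, rose by log2 4.56 ± 0.58 (SE, adjusted p = 3.66e-12) and Lrg1, a leucine-rich glycoprotein gene, by 4.71 ± 0.63 (SE, adjusted p = 6.40e-11, both edgeR). Lrg1 had 165 UMIs in tumour-bearing mice against 3 UMIs in healthy mice, a ratio of 34.9 with a 95% counting interval of 11.7 to 171. The summed level of the 14 markers outside the gate was 945, 1243 and 4243 CPM in gated cells of tumour-bearing lung, against 161, 268 and 453 CPM in healthy lung. In scaffold the sum was 120.4, 170.4 and 1575 CPM in tumour-bearing mice, against 33.1, 128 and 157 CPM in healthy mice. The lung groups did not overlap, whereas in scaffold the tumour-bearing library of day 7 lay below 2 healthy ones.

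Cells that should lack these transcripts carried them too. S100a8 stood at 3829 and 5463 CPM in gated cells of tumour-bearing spleen at days 14 and 21, and at 27030 and 14540 CPM in B cells of the same libraries. The gate itself caps calprotectin in monocytes. Of the 52 gated cells with 2 to 5% of UMIs from S100a8 and S100a9, 51 came from tumour-bearing and 1 from healthy libraries, among them 8 of 32 gated cells of tumour-bearing lung and 19 of 110 of tumour-bearing spleen at day 21. The part of free or carried-over neutrophil RNA in the rises of the neutrophil and granulocyte-like lists was not tested beyond a comparison with B cells given near the end.

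Genes on a list of classical monocytes moved less. Of 25 tested, outside the gate, 3 rose (Hp, Gda and Chi3l3) and 1 fell (Ifi27l2a), with a median of log2 0.10. Chi3l3 is on the granulocyte-like list as well. Hp, the haptoglobin gene, was 841, 1041 and 1784 CPM in tumour-bearing lung, against 299, 298 and 340 CPM in healthy lung. In scaffold it was 154, 185 and 500 CPM in tumour-bearing mice, against 109, 256 and 287 CPM in healthy mice. The lung groups did not overlap, whereas those of scaffold did. Over the 3 tissues Hp rose by log2 1.20 ± 0.28 (SE, 6 of 7 pairs, adjusted p = 4.47e-03, edgeR), with values from 1.06 to 1.25 when 1 day was left out, none of which passed the threshold. Lyz2, the lysozyme of monocytes and macrophages, showed a log2 difference of -0.14 ± 0.19 and the receptor gene Csf1r one of 0.19 ± 0.29 (SE), neither past the threshold (adjusted p = 0.999 each, edgeR).

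Of 14 matrix-remodelling genes 3 rose. Mmp8, neutrophil collagenase, rose by log2 2.96 ± 0.41 (SE, 6 of 7 pairs, adjusted p = 3.00e-10, edgeR), and gave 1.73 without day 21, past no threshold. Mmp19, another matrix metalloproteinase, rose by 1.52 ± 0.38 (SE, 7 of 7 pairs, adjusted p = 0.0108) and Tgfbi, a secreted adhesion protein induced by TGF-beta, by 1.02 ± 0.28 (SE, 6 of 7 pairs, adjusted p = 0.0321, both edgeR). Without day 21 their values were 1.52 and 0.88, and neither call remained. Vcan, a gate gene, was 83.4, 122 and 1261 CPM in tumour-bearing lung, against 0, 79.5 and 226 CPM in healthy lung.

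Interferon-response genes were lower in monocytes of tumour-bearing mice. Of 20 genes on the type I interferon list, all 20 had a negative log2 change, 4 fell and none rose, with a median of -1.05. The 4 were Ifi27l2a, a mitochondrial interferon-induced gene, Isg15, a ubiquitin-like modifier, Ifit3, an RNA-binding antiviral protein gene, and Rtp4, a receptor transporter gene. In lung the summed level of the list was 3079, 2261 and 357 CPM in tumour-bearing mice, against 4481, 4628 and 6111 CPM in healthy mice. In scaffold it was 2580, 2749 and 1197 CPM in tumour-bearing mice, against 5204, 3998 and 3959 CPM in healthy mice. No tumour-bearing library reached the lowest healthy one in either tissue.

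Ifi27l2a was the most abundant of the 4. In lung it stood at 1362, 1168 and 38.2 CPM in tumour-bearing mice, against 2643, 2562 and 3508 CPM in healthy mice. In scaffold it was 1436, 948 and 357 CPM in tumour-bearing mice, against 2101, 1970 and 1694 CPM in healthy mice, and in spleen at day 14 it was 1465 CPM in tumour-bearing mice and 3471 CPM in healthy mice. It fell by 1.33 ± 0.25 on the log2 scale (SE, 7 of 7 pairs, adjusted p = 3.26e-05, edgeR). Without day 21 the value was -0.76 (adjusted p = 0.355, edgeR). At day 21 the level was also lower in T cells of scaffold, at 68.1 CPM in tumour-bearing mice, against 915 CPM in healthy mice. B cells of tumour-bearing spleen had 0 CPM at day 21, but healthy spleen held only 4 B cells that day, too few for a comparison.

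Isg15 was 76.5, 65.7 and 12.7 CPM in tumour-bearing lung, against 161, 149 and 340 CPM in healthy lung. In scaffold it was 107, 185 and 20.8 CPM in tumour-bearing mice, against 199, 202 and 176 CPM in healthy mice. It fell by 1.29 ± 0.31 (SE, 7 of 7 pairs, adjusted p = 8.07e-03, edgeR), and without day 21 the value was -0.87 (adjusted p = 0.816, edgeR). Ifit3 fell by 2.05 ± 0.50 (SE, 5 of 7 pairs lower and 1 higher, adjusted p = 9.19e-03, edgeR). It had 22 UMIs in tumour-bearing mice and 63 UMIs in healthy mice. Rtp4 fell by 1.37 ± 0.37 (SE, 4 of 7 pairs lower and 2 higher, adjusted p = 0.0288, edgeR).

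Interferon-stimulated promoters carry a response element read by the STAT and IRF factors, and the promoters of the list were searched for its core, GAAANNGAAA on either strand. In the 250 bases before the start, taken from RefSeq on GRCm38.p6, 7 of the 13 members with a promoter in the table held it, against 936 of 27025 genes (3.46%). A match describes the letters only. The list was chosen as interferon-response genes, so its higher share follows from that choice and says nothing of the tumour effect. Ifi27l2a and Rtp4, which also fell, had no promoter in the table and were not searched. The 60 bases around the matches of Isg15 and Ifit3, which both fell, are shown 5′ to 3′ on the gene's strand with matches in capitals, where TTTCNNTTTC is the same core read from the other strand. Isg15 lies at chr4:156200850-156200909 on the minus strand and Ifit3 at chr19:34583382-34583441 on the plus strand.
Isg15: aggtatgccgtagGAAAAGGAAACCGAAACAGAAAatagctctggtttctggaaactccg
Ifit3: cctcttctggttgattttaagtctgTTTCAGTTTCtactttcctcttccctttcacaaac
The Isg15 window holds 3 overlapping matches in 1 run. The Ifit3 promoter holds 2 matches, of which the window shows 1.

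**Figure D3:**
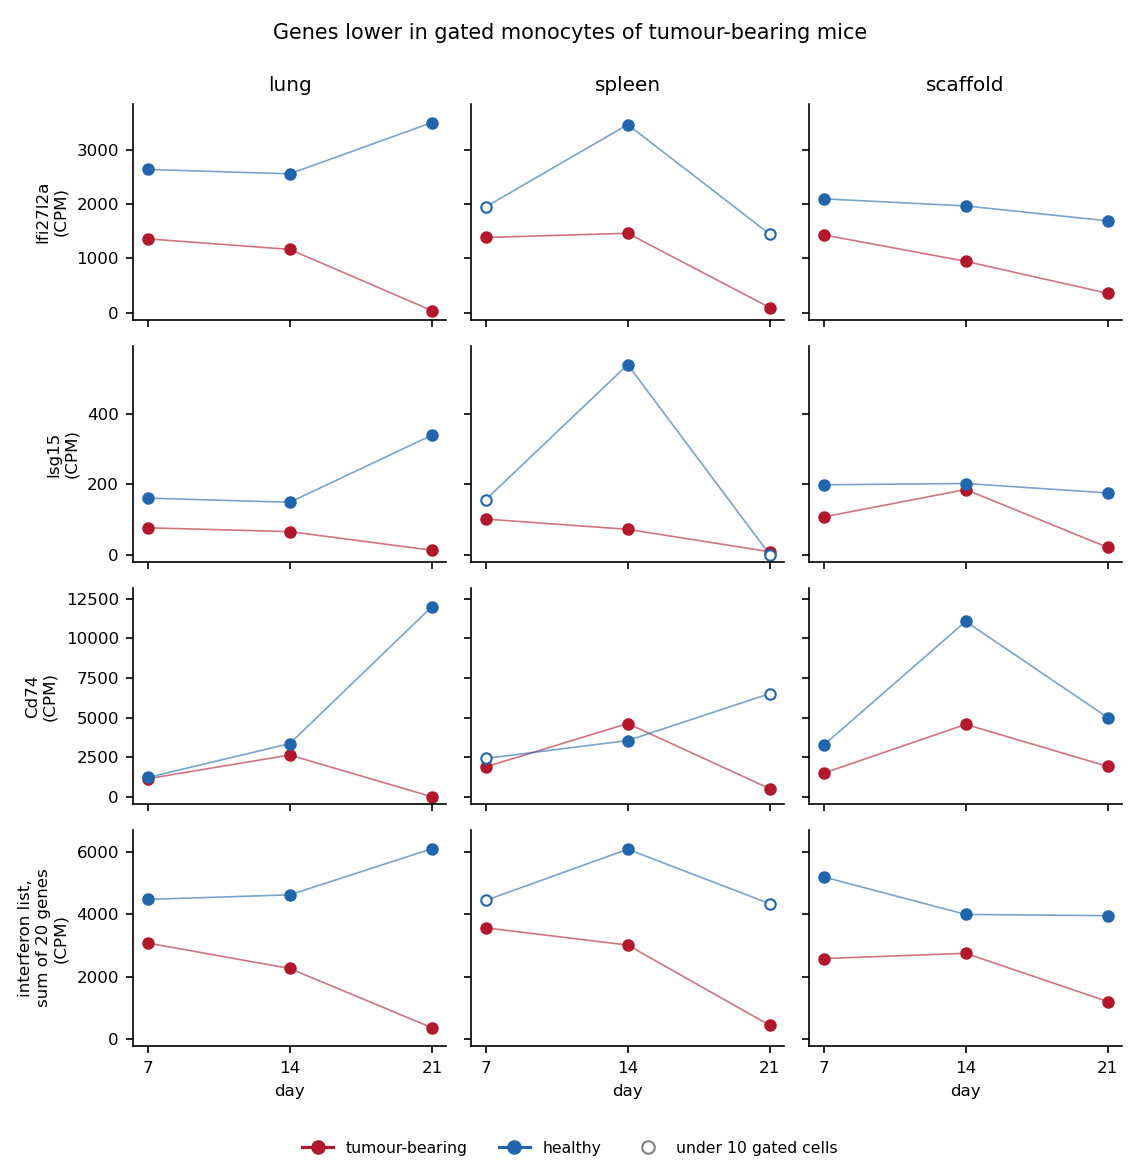
Levels of Ifi27l2a, Isg15 and Cd74 and the summed level of the 20 interferon list genes in gated monocytes (CPM, y axis) by day (x axis), tumour-bearing in red and healthy in blue, 1 point per library. The list sum in tumour-bearing lung lay below every healthy lung library at each day and stood at 357 CPM at day 21.

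Of the antigen-presentation genes, only Cd74 passed the test. Of 10 MHC class II genes tested 9 had a negative change and 1, Cd74, the invariant chain, fell, with a median of log2 -0.73. Of 9 MHC class I genes none passed edgeR's threshold, with H2-D1 at 0.03 and B2m at -0.29. Cd74 was 1491, 4568 and 1919 CPM in tumour-bearing scaffold, against 3255, 11070 and 4998 CPM in healthy scaffold. In lung it was 1140, 2636 and 0 CPM in tumour-bearing mice, against 1218, 3357 and 12000 CPM in healthy mice. The log2 change was -1.01 ± 0.25 (SE, 6 of 7 pairs lower, adjusted p = 8.89e-03, edgeR), and -0.32 without day 21 and -0.53 without healthy lung at day 21, neither past the threshold. Of 15 non-classical monocyte genes none passed edgeR's threshold and 12 were lower, and the patrolling receptor gene Cx3cr1 differed by -0.35 ± 0.29 (SE, adjusted p = 0.999).

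Within lung, 35 genes rose (0.578%) and 5 fell (0.0826%), together 0.661% of 6052, so that higher genes were 87.5% of calls, and 69.0% with library totals in place of TMM. Calls numbered 21 without day 7, 23 without day 21 and 19 without healthy lung at day 21, against 40. Besides the genes above, the chemokine receptor gene Ccr1 rose by log2 2.26 ± 0.60 and Csf2rb, the shared receptor subunit for GM-CSF, by 2.02 ± 0.54 (SE, 3 of 3 days each, adjusted p = 0.0286 and 0.0324, edgeR). Ccr1 stood at 153, 178 and 471 CPM in tumour-bearing lung, against 68.9, 29.8 and 113 CPM in healthy lung, on 97 UMIs against 7 in all. Hp rose by 2.10 ± 0.40 and Tgfbi by 2.24 ± 0.45 (SE, 3 of 3 days each, adjusted p = 7.91e-05 and 2.99e-04, edgeR). Cd36, a scavenger receptor gene for fatty acids and oxidised lipoprotein, fell by 3.12 ± 0.61 (SE, 3 of 3 days, adjusted p = 1.50e-04, edgeR). Without healthy lung at day 21 the change of Ifi27l2a was -0.91 and that of Cd74 -0.11, and both calls ended, as did those of Ccr1 (2.07), Csf2rb (1.70) and Tgfbi (1.77). Ccr1 and Csf2rb also lost their calls without any 1 day (1.76 to 2.69 and 1.73 to 2.21), Cd36 (-2.85) and Tgfbi (2.11) without day 7, while Hp kept its call.

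Within scaffold, 18 genes rose (0.297%) and 17 fell (0.281%) of 6052. Mfge8, a bridge for uptake of apoptotic cells, was 105, 167 and 111 CPM in tumour-bearing scaffold, against 23.7, 58.6 and 28.5 CPM in healthy scaffold. It rose by log2 1.82 ± 0.46 (SE, 3 of 3 days, adjusted p = 0.0216, edgeR). Tm4sf19, a tetraspanin-like gene, was 44.5, 74.1 and 153 CPM in tumour-bearing scaffold, against 14.2, 16.0 and 30.8 CPM in healthy scaffold, a rise of 2.10 ± 0.57 (SE, 3 of 3 days, adjusted p = 0.0434, edgeR). The groups did not overlap for either gene.

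Genes that fell in scaffold monocytes included chemokines, class II genes and Ly6 genes. Ccl6, a CC chemokine gene, was 560, 689 and 798 CPM in tumour-bearing scaffold, against 1698, 2199 and 1020 CPM in healthy scaffold, and fell by 1.22 ± 0.33 (SE, 3 of 3 days, adjusted p = 0.0402, edgeR). H2-DMa, which loads peptide onto class II molecules, fell by 1.35 ± 0.35 and Ly6e, an interferon-inducible Ly6 gene, by 1.22 ± 0.33 (SE, adjusted p = 0.0296 and 0.0437, edgeR). Ly6c1 fell by 1.38 ± 0.35 (SE, adjusted p = 0.0236, edgeR), although short reads can be split between it and its near copy Ly6c2. The gate gene Ly6c2 was 144, 385 and 219 CPM in tumour-bearing scaffold, against 544, 655 and 463 CPM in healthy scaffold. Without day 21, Saa3 in scaffold stood at log2 2.21 (adjusted p = 0.6), Mmp8 at 0.29, Mfge8 at 1.74 and Tm4sf19 at 1.87, and 3 genes in all passed, against 35 with all days, 21 without day 7 and 53 without day 14.

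The effect in lung differed from that in scaffold for 11 genes (0.182%), with 10 changes higher in lung (0.165%) and 1 lower (0.0165%). Cd36 was 34.8, 23.5 and 0 CPM in tumour-bearing lung, against 437, 159 and 113 CPM in healthy lung, while in scaffold it was 814, 759 and 649 CPM in tumour-bearing mice, against 908, 421 and 453 CPM in healthy mice. The lung levels rest on 10 Cd36 UMIs in tumour-bearing and 36 in healthy mice. Gated cells of healthy lung at day 21 held 8837 UMIs in all, so a level of 113 CPM there rests on very few. Calls numbered 4 without day 7 and 6 without day 21. For Cd36 the difference between the effects was log2 -3.51 ± 0.69 (SE, adjusted p = 5.09e-04, edgeR). Tspo, a cholesterol-binding protein gene of the mitochondrial outer membrane, was 514, 802 and 1070 CPM in tumour-bearing lung, against 161, 218 and 113 CPM in healthy lung, and 361, 456 and 375 CPM in tumour-bearing scaffold, against 383, 586 and 472 CPM in healthy scaffold. Its difference was 2.50 ± 0.55 (SE, adjusted p = 3.84e-03, edgeR). Without day 7 neither passed (-3.54 and 2.73), and without day 14 or day 21 Cd36 kept its call while Tspo did not (2.51 and 2.19). For Saa3, Hp, Tgfbi, Ifi27l2a and Cd74 the difference between tissues was not past the threshold (adjusted p from 0.146 to 1, edgeR).

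The 11 include the gate genes S100a8 and S100a9, and others rested on few cells. Dcn, the collagen-binding decorin gene of fibroblasts, was 320, 197 and 0 CPM in tumour-bearing lung, against 0 CPM in all 3 healthy lung libraries, and 2 gated cells of tumour-bearing lung carried 5 or more collagen and matrix UMIs. With such cells removed, Gsn gave a difference of 0.46. Spleen, with 1 pair, had 2 calls (0.033%), S100a8 and S100a9, both gate genes, and 394 genes at an unadjusted p under 0.05 in edgeR.

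**Figure D4:**
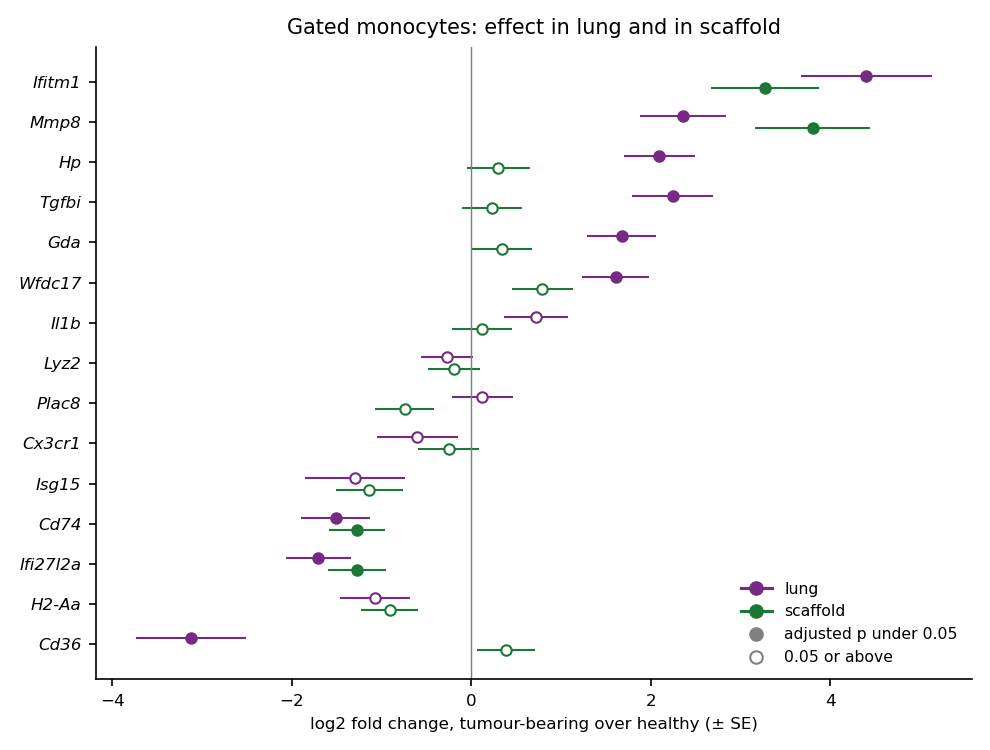
Log2 fold change of tumour-bearing over healthy (x axis, ± SE) in gated monocytes of lung (purple, upper) and scaffold (green, lower) for genes named in the text or on the fixed panel, 3 pairs of libraries per tissue. Filled points passed an adjusted p of 0.05; Cd36 lies at -3.12 in lung and 0.39 in scaffold.

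Scaffold monocytes differed from lung monocytes in many more genes than the tumour comparisons called. Over both states, 513 genes were higher in scaffold than in lung monocytes (8.48%) and 267 lower (4.41%), together 12.9% of 6052. Higher genes were 65.8% of these calls, and 52.6% with library totals. Without day 14 the calls numbered 255 and without day 7 they numbered 401, against 780. Genes of macrophage maturation and lipid handling were the clearest group: 15 of 16 tested were called higher in scaffold and none lower, with a median of log2 3.83, against 0.13 for all genes. Their summed level was 21110, 30170 and 34850 CPM in tumour-bearing and 16250, 29750 and 25900 CPM in healthy scaffold, against 4692, 4306 and 8715 CPM in tumour-bearing and 5009, 5701 and 2942 CPM in healthy lung.

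Mmp12, macrophage elastase (mm10 chr9:7344381-7369499), was 1544, 2793 and 1339 CPM in tumour-bearing and 511, 1640 and 3366 CPM in healthy scaffold, against 0, 9.38 and 0 CPM in tumour-bearing and 0 CPM in all healthy lung libraries. Spp1, the secreted phosphoprotein osteopontin (mm10 chr5:104435118-104441050), was 3012, 2652 and 4171 CPM in tumour-bearing and 965, 2971 and 2033 CPM in healthy scaffold. In lung Spp1 lay between 0 and 23 CPM in all 6 libraries. The scaffold over lung difference was log2 9.07 ± 0.55 for Mmp12, 7.93 ± 0.47 for Spp1, 7.22 ± 0.54 for the lysosomal glycoprotein gene Gpnmb and 4.99 ± 0.37 for Lpl, lipoprotein lipase (SE, 6 of 6 pairs each, adjusted p from 9.62e-27 to 1.49e-20, edgeR). Lung held 2 UMIs of Mmp12 and 3 of Gpnmb, so the ratio of summed levels was 596 (95% counting interval 165 to 4921) for Mmp12 and 164 (56.0 to 797) for Gpnmb. Cells with an Spp1 UMI made up 37.5 to 62.2% of gated cells in tumour-bearing scaffold and 32.7 to 45.1% in healthy scaffold, against 0 to 3.57% in lung libraries.

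Other groups moved in both directions. MHC class II genes were higher in scaffold for 6 of 10, with H2-Ab1 at log2 1.72 ± 0.34 (SE, adjusted p = 5.90e-05, edgeR), and glycolysis and hypoxia genes for 8 of 13, with Ldha, lactate dehydrogenase, at 1.82 ± 0.34 (SE, adjusted p = 3.06e-05, edgeR). The interleukin 1 receptor antagonist gene Il1rn was higher by 5.72 ± 0.50, whereas the cytokine gene Il1b was lower by -1.62 ± 0.31 (SE, adjusted p = 1.18e-16 and 4.30e-05, edgeR). Il1b stood at 607, 244 and 580 CPM in tumour-bearing scaffold, against 2627, 2036 and 688 CPM in tumour-bearing lung.

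Circulating-monocyte genes were mostly called lower in scaffold. Of 15 non-classical genes 11 were called lower and 2 higher. Their summed level was 2148, 2056 and 2204 CPM in tumour-bearing and 1973, 2007 and 1677 CPM in healthy scaffold. The lung sums were 2315, 1454 and 930 CPM in tumour-bearing and 3791, 2334 and 2490 CPM in healthy mice. The sum was thus lower in scaffold at every day in healthy mice, but only at day 7 in tumour-bearing mice. Nr4a1, the nuclear receptor needed for Ly6C-low monocytes, was lower at log2 -2.58 ± 0.38 (SE, adjusted p = 7.13e-08, edgeR). Nr4a1 is also on a list of immediate-early and dissociation genes. That list summed to 6557, 6812 and 12290 CPM in tumour-bearing and 7527, 6793 and 10800 CPM in healthy scaffold. In lung it summed to 14870, 16380 and 19340 CPM in tumour-bearing and 15740, 14470 and 12450 CPM in healthy mice. Its part in the Nr4a1 difference was not tested. Plac8, abundant in Ly6C-high monocytes, was lower by -1.89 ± 0.29 (SE, 0 of 6 pairs higher, adjusted p = 2.80e-07, edgeR). Globin transcripts were lower too, for 4 of 5 tested erythroid genes, and summed to 39.2, 81.5 and 3.47 CPM in tumour-bearing scaffold, against 549, 1234 and 0 CPM in tumour-bearing lung. Macrophage transcripts followed the same split: the 7 resident macrophage markers outside the gate summed to 4163 to 11980 CPM in tumour-bearing and 4745 to 9274 CPM in healthy scaffold, against 1975 to 4803 CPM in tumour-bearing and 1358 to 3456 CPM in healthy lung. Their part in the difference was not tested.

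**Figure D5:**
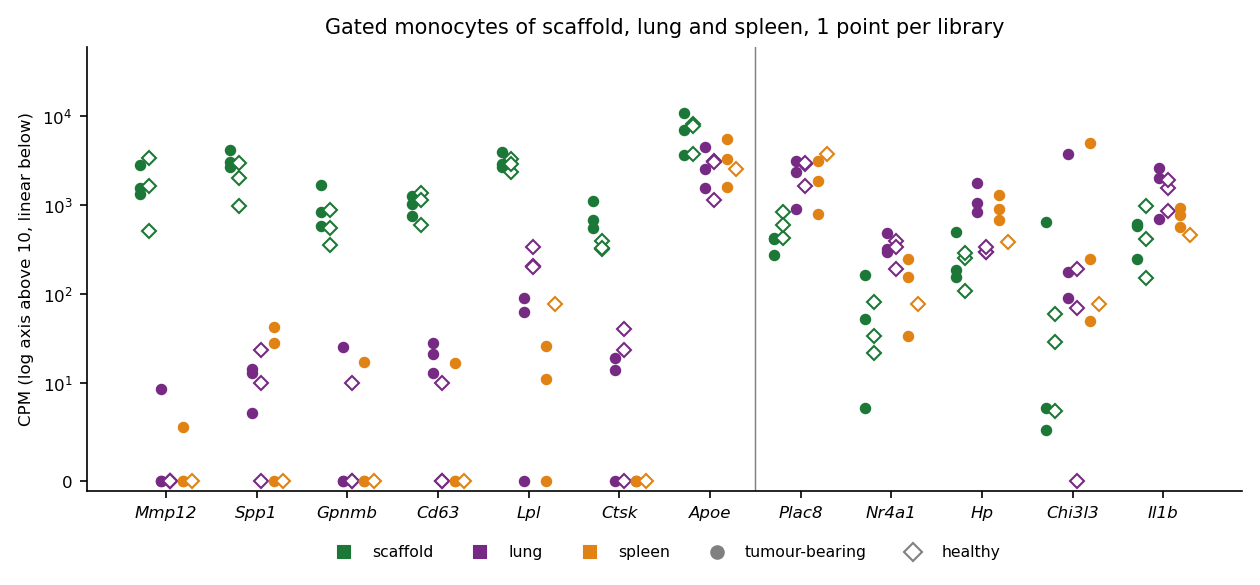
Levels of 12 genes in gated monocytes (CPM, log axis above 10 and linear below) in scaffold (green), lung (purple) and spleen (orange), 1 point per library with at least 10 gated cells, filled for tumour-bearing and open for healthy. The 6 scaffold libraries lie from 511 to 3366 CPM for Mmp12, above every lung and spleen library.

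The scaffold programme was unevenly spread within the gate. In tumour-bearing scaffold, the 136 cells with exactly 2 markers had 2930 CPM of Mmp12 and 4061 CPM of Spp1, and the 154 cells with 3 or more had 630 and 2380 CPM. In healthy scaffold the 209 cells with 2 markers had 3569 CPM of Mmp12 and 2516 CPM of Spp1, and the 179 cells with 3 or more had 240 and 1159 CPM. Plac8 ran the other way, at 117 CPM with 2 markers and 662 CPM with 3 or more in tumour-bearing scaffold. The marker count is part of the gate, so these are descriptions. With at least 3 markers required of every cell, the scaffold over lung calls of Mmp12, Spp1, Gpnmb and Lpl remained.

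Against spleen, scaffold monocytes showed 387 higher genes (6.39%) and 107 lower (1.77%), together 8.16% of 6052, with higher genes at 78.3% of calls and 60.5% with library totals. Calls numbered 129 without day 14, against 494. Again 15 of 16 macrophage maturation and lipid genes were higher. Atp6v0d2, a proton pump subunit of macrophages and osteoclasts, had 519 UMIs in scaffold and 0 in spleen, at least 62.8-fold higher. Plac8 was lower by -1.91 ± 0.34 and Chi3l3 by -2.56 ± 0.46 (SE, 0 of 4 pairs higher each, adjusted p = 1.05e-05 and 1.68e-05, edgeR). Prtn3, an azurophil granule protease gene of marrow precursors, was lower by -4.77 ± 0.63 (SE, 0 of 4 pairs higher, adjusted p = 4.69e-09, edgeR), and 9 of 12 granulocyte-like genes were lower.

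Lung and spleen monocytes were closer. There were 23 genes higher in lung (0.38%) and 8 lower (0.132%), together 0.512% of 6052. The higher genes include the matrix genes Col3a1, Dcn and Sparc, each with 0 UMIs in spleen. With collagen-carrying cells removed, 15 genes were higher in lung and 17 lower. Of the immediate-early and dissociation genes some were higher in lung, with Btg2 at log2 1.45 ± 0.35 and Nr4a1 at 1.75 ± 0.44 (SE, 4 of 4 pairs each, adjusted p = 0.0225 and 0.0354, edgeR). Hspa1a, a heat shock gene of the same list, was lower in lung by -2.42 ± 0.59 (SE, 3 of 4 pairs lower, adjusted p = 0.0240, edgeR). Top2a, the topoisomerase of dividing cells, was lower in lung by -3.00 ± 0.67 (SE, adjusted p = 0.0117, edgeR), and all 16 tested cell cycle genes had a negative change. Without day 14 no gene passed in edgeR, and 110 had an unadjusted p under 0.05.

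The tumour effect in monocytes was set against that in 1902 B cells of the 9 lung and spleen libraries with at least 10 of them, which should not make myeloid transcripts. No scaffold library and no lung library of day 21 had enough B cells, and spleen at day 21 had them in tumour-bearing mice only. The B cell effect thus rests on days 7 and 14 of lung and spleen, and the monocyte effect also on scaffold and day 21. Of 7117 genes tested, the effect was larger in monocytes for 4 (0.0562%) and smaller for 19 (0.267%), together 0.323%. Larger effects were 17.4% of calls, and 3.4% with library totals. Calls numbered 2 without day 14 and 34 without day 21, against 23. Among the smaller were Wfdc17 at log2 -2.88 ± 0.49, Lyz2 at -1.87 ± 0.34 and Fcer1g, an Fc receptor subunit gene, at -2.16 ± 0.44 (SE, adjusted p = 2.64e-04, 6.82e-04 and 5.05e-03, edgeR). Lyz2 rose in B cells by 1.72 ± 0.28 (SE, adjusted p = 1.27e-05, edgeR). Saa3 and Wfdc21 rose in B cells by 5.49 ± 0.86 and 4.07 ± 0.45 (SE, adjusted p = 3.91e-06 and 9.01e-11, edgeR), and for Saa3 the difference from monocytes was -0.55, not past the threshold. Of 13 tested mature neutrophil markers outside the gate, 0 had a larger and 0 a smaller effect in monocytes past the threshold. Their median difference was log2 -1.33, against 0.13 for all genes. Cd177, on the granulocyte-like list, was among the smaller at -3.97 ± 1.00 (SE, adjusted p = 0.0496, edgeR). A larger rise of the neutrophil markers in monocytes than in B cells was thus not shown. Without day 14 the differences of Wfdc17 (-2.22), Lyz2 (-1.42) and Fcer1g (-1.62) no longer passed. Ifi27l2a and Isg15 differed by -0.61 ± 0.36 and -0.33 ± 0.62 in B cells (SE, adjusted p = 0.81 and 1, edgeR). Their differences from monocytes were -0.71 ± 0.44 and -0.96 ± 0.73 (SE, adjusted p = 1 each, edgeR), so no difference between the cell types was shown.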

How the data were processed

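Drop-seq profiles of lung, spleen and scaffold were read from 18 gene-by-barcode tables. The authors deposited raw UMI counts per gene and barcode, whole numbers with no normalization; the submitters' processing notes name Seurat 2 and mm10, and the aligner is not given in the sources used here. Cells with at least 200 genes and under 20% mitochondrial UMIs were kept, and the gate was applied to them. No doublet caller was run. Members and gene lists were chosen with earlier results of these data known.

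Counts of gated cells were summed per library and fitted with edgeR 4.0.16 in R 4.3.3 (TMM, filterByExpr, quasi-likelihood F test, Benjamini-Hochberg adjustment over all genes tested). Tumour comparisons had tissue and day as a block. Comparisons between tissues had state and day as a block, and the comparison with B cells had tissue, day and cell type. DESeq2 1.42.0 was an alternative. The block of tissue and day follows the design, in which healthy mice were matched by day. Deviations of same-day libraries correlated from 0.00138 to 0.0772 in lung and from 0.24 to 0.443 in scaffold. Shares used exact permutation and sign-flip tests in scipy 1.17.1, and intervals are 95% exact binomial or Poisson intervals that cover counting error only.

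Named genes were, per comparison, the 10 largest rises and falls called with 1 sign in every pair and at least 30 UMIs, up to 4 called members of each list by p, the gate genes and a fixed panel; the text shows a selection of them, and 1 panel gene is not reported here. Of 362 list and panel genes, 356 matched the files by symbol and 5 by an older symbol. Alternatives were DESeq2, library totals in place of TMM, no filter, no block, 3 markers, calprotectin under 2%, shared barcodes kept, barcodes merged on 11 bases, 400 genes, 20 cells per library, thinning to 500 UMIs, another denominator and each day left out. Removal of collagen-carrying cells and of 2 healthy day 21 libraries was chosen after seeing the data.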

Additional observations from a re-analysis of the deposited data

Results flagged for a closer look

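Outside the gate genes, 9 genes were singled out because the tumour effect differed between lung and scaffold in a test of that difference (edgeR, adjusted p under 0.05); all values are the log2 effect in lung minus that in scaffold. Cd36 gave -3.51 and Tspo 2.50, both described above. Ier3, an immediate-early gene of cell survival, gave 4.36 on 97 UMIs in tumour-bearing lung and 1 UMI in healthy lung, a lung ratio of 34.1 with a 95% counting interval of 5.97 to 1360. The others were matrix and secreted genes of fibroblasts: Clec3b at 8.70, Dcn at 8.65, Dpt at 7.98, Gsn at 4.34, Igfbp6 at 7.63 and Ogn at 8.46. Fitted values this large rest on libraries at or near 0 and depend on the prior count. Of the tumour-bearing lung cells, 2 carried 5 or more collagen and matrix UMIs, and with such cells removed in every library Gsn gave 0.46, while Cd36 (-3.50) and Tspo (2.48) kept their calls. Groups of 3 libraries allow no test for an outlying sample.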

How the results depend on the processing

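Of 1761 values of 140 named gene results, 1246 kept their direction and side of the threshold, 513 kept their direction and no longer passed, and 2 reversed: Chi3l3 over the 3 tissues without day 21 (-0.79, against 3.94 without day 14) and Cd74 in lung with 3 or more markers (0.64). The cause was not tested. Differences in share, in percentage points for a tissue and as a mean log2 ratio for the 9 pairs, reversed under a calprotectin limit of 2% (lung -0.399, 9 pairs -0.0994), thinning to 500 UMIs (lung -0.173, spleen 5.17), shared barcodes kept (spleen 3.31), 400 genes (spleen 7.07), merged barcodes (9 pairs -0.0110) and the share outside calprotectin cells (spleen 5.99, 10.7 without healthy spleen at day 21, scaffold 0.893), where the 9 pairs gave 0.903.

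Genes called over the 3 tissues numbered 28 with DESeq2, 31 with 20 cells per library, 30 with 3 markers and 26 with 400 genes. In lung they numbered 13 with DESeq2, 9 with 3 markers and 14 with 400 genes. In spleen they numbered 4 with library totals, 0 with DESeq2 (147 unadjusted), 1 with calprotectin under 2% and 9 with shared barcodes kept. In scaffold they numbered 1 with DESeq2, 22 with 20 cells, 23 with 3 markers, 19 with calprotectin under 2% and 16 with 400 genes. For lung minus scaffold they numbered 3 with DESeq2, 2 with 3 markers, 6 with 400 genes and 6 without collagen-carrying cells. With 3 markers, 311 genes were called for scaffold against lung, 169 for scaffold against spleen, 8 for monocytes minus B cells, and 0 for lung against spleen (274 unadjusted, edgeR), which had 18 with library totals and 66 with no filter.

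The replicate block mattered in most comparisons. Without it, edgeR called 10 genes over the 3 tissues, and 0 in lung (424 unadjusted), spleen (427), scaffold (135) and lung minus scaffold (263). Lung against spleen (351 unadjusted) and monocytes minus B cells (281) also had 0 calls. Scaffold against lung had 646 calls, against 780 with the block, and scaffold against spleen had 354, against 494. Spleen has no value with 20 cells, 3 markers, 400 genes or without day 14, since too few libraries remained.

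With 1 day or library left out, counts ran from 19 to 50 over the 3 tissues, 19 to 30 in lung, 2 to 9 in spleen, 3 to 53 in scaffold, 4 to 8 for lung minus scaffold, 255 to 749 for scaffold against lung, 129 to 496 for scaffold against spleen, 0 to 40 for lung against spleen and 2 to 34 for monocytes minus B cells. Shares ran from -1.81 to 4.06 in lung, -2.74 to 4.10 in spleen, -4.36 to 1.37 in scaffold and -0.557 to 0.836 (mean log2 ratio) over the 9 pairs. Healthy lung at day 21, with 21 gated cells at a median of 413 UMIs, and healthy spleen limit depth most.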
